A study of Mus musculus with 3 samples.

Results

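The BCL2 family decides whether the outer membrane of mitochondria stays intact when a cell is stressed. Pro-survival members such as BCL-2, BCL-XL and MCL-1 hold the pore-forming effectors BAX and BAK in check. BH3-only proteins, which carry a single short BCL2 homology motif, bind the pro-survival members or the effectors and tip the balance toward permeabilization, release of cytochrome c and caspase activation. Endothelial cells, which line blood vessels and face oxidants in the blood and in the vessel wall, express members of all 3 classes. Here 10 genes of the family were taken by symbol from the deposited tables: the pro-survival genes Bcl2, Bcl2l1 and Mcl1, the effectors Bax and Bak1, and the BH3-only genes Bad, Bid, Bbc3, Bmf and Bcl2l11. All 10 were among the 18287 genes listed.

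Polyadenylated RNA was sequenced from a purchased culture of mouse aortic endothelial cells, with 1 library in each of 3 groups: control, cells given glucose oxidase at 5 mU/mL for 30 min, and cells given that treatment together with 0.2 mM ethyl-2-hydroxybenzylamine (Et2HOBA) for 24 h. Glucose oxidase releases hydrogen peroxide as it oxidizes glucose, and Et2HOBA was used in the study as a scavenger of isolevuglandins, which form from oxidized lipids. The labels give no strain, genotype, vehicle, order of exposure or time of harvest, and no library with Et2HOBA alone was analysed here. All 10 endothelial markers examined were read in each library, and their reads summed to 366294 in control, to 220343 in the oxidase library and to 216000 with Et2HOBA. The 4 smooth muscle markers listed summed to 44 to 99 reads.

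The libraries held 35005089 to 40212212 reads over the listed genes. Since each group is 1 library, differences below could not be checked against replicates, and conditions could not be tested. All intervals are 95% and exact (Clopper-Pearson), taken from the reads of the libraries, or genes of a library, that are compared. They cover counting error only, and reads from the same PCR product are not independent molecules. Reads for the library given glucose oxidase alone were worked back from log2 differences deposited by the authors. Where 3 values are given for a gene without further words, the order is control, oxidase alone, oxidase plus Et2HOBA; where 2 are given, they set the treated libraries against control. A normalized count is the read count divided by the library's size factor, and a gene is said to pass the limit when its log2 ratio of normalized counts plus 10 is at least 1 in size. In bulk RNA, fewer cells of a type and less RNA per cell cannot be told apart.

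Bcl2l1, which encodes BCL-XL, was the member farthest from control in both treated libraries. Control had 11339 Bcl2l1 reads, the oxidase library 16884 and the Et2HOBA library 24158, so its level climbed stepwise over the groups. The gene (ENSMUSG00000007659.18) lies on the minus strand of chromosome 2, 152780668 to 152831728 in mm10. RefSeq gives 3 start windows for it, each running from 250 bases before to 50 bases after a transcription start (GRCm38.p6, gene strand). The outermost is chr2:152831679-152831978. A second, chr2:152828440-152828739, is shown since it holds the only match among the Bcl2l1 windows to the motifs searched, in capitals: the core of the antioxidant response element, TGACNNNGC, here on the opposite strand at position -127 from the start.
Bcl2l1, outermost start: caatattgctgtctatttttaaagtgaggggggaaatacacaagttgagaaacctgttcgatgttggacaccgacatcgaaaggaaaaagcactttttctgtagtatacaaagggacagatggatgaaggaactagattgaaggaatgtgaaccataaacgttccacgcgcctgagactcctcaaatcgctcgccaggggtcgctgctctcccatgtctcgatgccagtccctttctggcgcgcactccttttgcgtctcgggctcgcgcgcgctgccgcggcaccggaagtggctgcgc
Bcl2l1, inner start: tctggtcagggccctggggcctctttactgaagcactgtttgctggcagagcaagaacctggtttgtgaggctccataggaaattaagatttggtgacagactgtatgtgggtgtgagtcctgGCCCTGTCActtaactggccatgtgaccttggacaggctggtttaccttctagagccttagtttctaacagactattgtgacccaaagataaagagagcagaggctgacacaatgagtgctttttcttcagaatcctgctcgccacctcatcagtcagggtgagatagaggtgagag

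The Bcl2l1 level after glucose oxidase was 1.59-fold that of control (95% interval 1.55 to 1.63), a log2 ratio of 0.67. With Et2HOBA it was 2.12-fold that of control (2.07 to 2.17), a log2 ratio of 1.08, higher than 94.2% of all genes. Of all genes 12.9% had a log2 ratio at least as large in size. Bcl2l1 is singled out as the member farthest from control, so its place is less unusual than for a gene named beforehand. Between the treated libraries the Bcl2l1 level was 1.33-fold higher with Et2HOBA (1.30 to 1.36). The log2 ratio with Et2HOBA fell under the limit, to 0.93, when libraries were scaled by their total reads. None of the 50-base stretches of its longest transcript was found in another annotated gene. The counts are per gene, so the long and short Bcl2l1 transcripts, which encode products of opposite action, are summed in these values. The antioxidant response element core was found in 12.4% of 32817 RefSeq start windows of the same length, on either strand.

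No member passed the limit after glucose oxidase, where 12.7% of all genes did. With Et2HOBA against control 1 of 10 passed, Bcl2l1, against 14.7% of all genes. Between the treated libraries none passed, against 8.55% of all genes. All 10 members code for proteins, and over protein-coding genes alone the shares were 9.3%, 16.6% and 3.32%. The members' median log2 ratio was 0.02 after glucose oxidase, -0.03 with Et2HOBA against control and -0.01 between the treated libraries; over all genes it was -0.01, 0.00 and 0.00. At this depth counting error alone is small, and the interval excluded equal levels for 7, 9 and 8 of the 10 members in the 3 comparisons, against 60.3%, 64.0% and 54.7% of all genes. Of these members 3, 4 and 4 were higher (29.7%, 33.2% and 29.7% of all genes) and 4, 5 and 4 lower (30.6%, 30.8% and 25.0%). At a log2 ratio of 0.5, Bcl2l1 alone passed after glucose oxidase (33.8% of all genes), 4 members passed with Et2HOBA against control, namely Bcl2, Bcl2l1, Bcl2l11 and Bmf (40.1%), and Bmf alone between the treated libraries (25.5%). The members' shares are thus at or below those of all genes at both limits. The comparisons against control use the same control library.

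**Figure D1:**
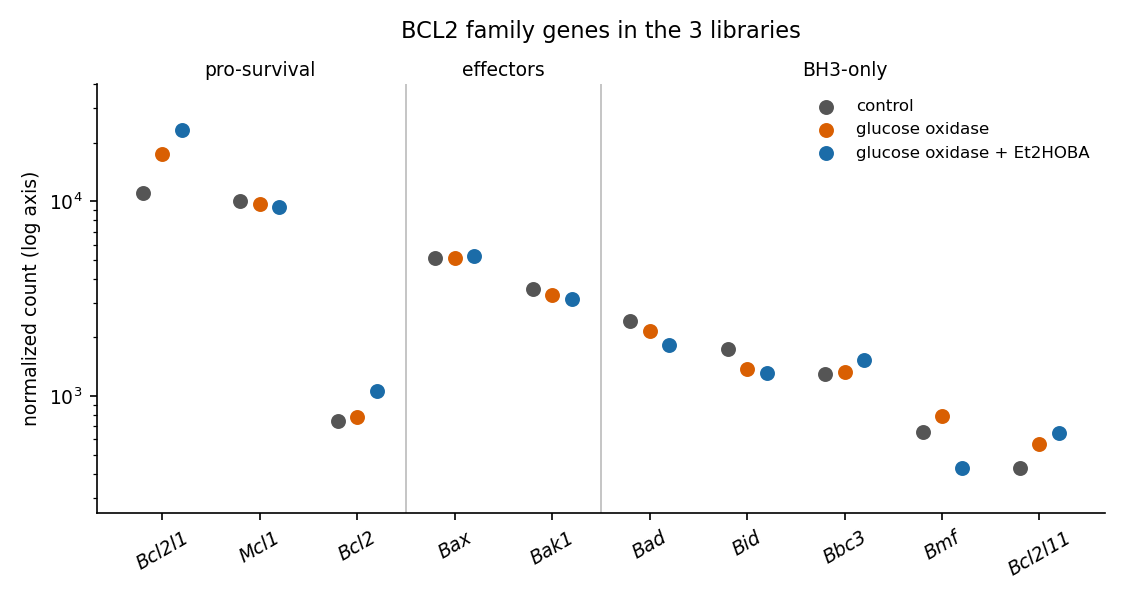
Normalized count (log axis) of the 10 BCL2 family genes in each of the 3 libraries, 1 point per library, grouped by role. Bcl2l1 steps up from 10990 to 17490 and 23260, Bax stays between 5102 and 5244, and Bmf is lowest with Et2HOBA.

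Mcl1, the other abundant pro-survival gene, was close to control throughout. MCL-1 is a short-lived protein that is controlled to a large extent after transcription. Mcl1 (ENSMUSG00000038612.16, chromosome 3, 95658788 to 95663176) had 10404, 9345 and 9709 reads. Its level was 0.960 of control after glucose oxidase (95% interval 0.934 to 0.988) and 0.927 with Et2HOBA (0.902 to 0.953). Both values lay slightly below control, in contrast to Bcl2l1.

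Bcl2, the founding pro-survival gene, was read far less. It (ENSMUSG00000057329.7, chromosome 1, 106538178 to 106714274) had 768, 758 and 1109 reads. Control and glucose oxidase were alike within counting error, at 1.055-fold (95% interval 0.953 to 1.17), and the Et2HOBA library was higher. There it was 1.44-fold the control level (1.31 to 1.58) and 1.36-fold the level after glucose oxidase (1.24 to 1.49). Of its 50-base stretches 6.75% occur in another gene, most of them in D630008O14Rik, which overlaps it on the opposite strand.

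Of the effectors, Bax was the member nearest to control, and Bak1 was slightly below control in both treated libraries. BAX and BAK form the pores in the outer membrane once activated. Bax (ENSMUSG00000003873.11, chromosome 7, 45461697 to 45466898) had 5265, 4952 and 5447 reads. Its folds of control were 1.01 (95% interval 0.967 to 1.045) and 1.03 (0.990 to 1.07), so both intervals held equal levels. With total-count scaling its log2 ratios turned from slightly above to slightly below 0, at -0.05 and -0.11. Bak1 (ENSMUSG00000057789.14, chromosome 17, 27019810 to 27029009) had 3676, 3201 and 3266 reads. It was at 0.931 of control after glucose oxidase (0.888 to 0.976) and 0.883 with Et2HOBA (0.842 to 0.926).

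The BH3-only genes did not move as a group. Bad and Bid lay below control under either treatment, and Bcl2l11 was higher in both. Bbc3 was slightly higher with Et2HOBA, by an amount that depended on the scaling. Bmf lay above control after glucose oxidase and below it with Et2HOBA. BAD binds BCL-2 and BCL-XL and is held inactive by growth factor signalling. Bad (ENSMUSG00000024959.14, chromosome 19, 6941861 to 6951899) had 2521, 2097 and 1903 reads, which is 0.889 of control after glucose oxidase (95% interval 0.839 to 0.943) and 0.750 with Et2HOBA (0.706 to 0.796). The 3 libraries were ordered as for Bcl2l1, but downward.

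BID links death receptors to mitochondria after it is cut by caspase-8. Bid (ENSMUSG00000004446.12, chromosome 6, 120891930 to 120916853) had 1810, 1330 and 1359 reads. The treated libraries were alike, at 0.786 (95% interval 0.731 to 0.844) and 0.746 (0.695 to 0.801) of control, and their ratio to each other, 0.9497, had an interval that held 1 (0.880 to 1.03). Some reads of Bid could belong to its neighbour, since 17.7% of its exon bases overlap Bcl2l13 on the opposite strand. Bad shares 20.5% with Gpr137 in the same way. The strand setting of the counting is not given in the sources used here.

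PUMA, the product of Bbc3, and BIM, the product of Bcl2l11, can bind every pro-survival member. Bbc3 (ENSMUSG00000002083.13, chromosome 7, 16308393 to 16318205) had 1347, 1288 and 1587 reads. It was at 1.02-fold after glucose oxidase (95% interval 0.946 to 1.104), a log2 ratio of 0.03 that turned to -0.03 with total-count scaling. With Et2HOBA it was at 1.17-fold (1.09 to 1.26), a log2 ratio of 0.23 that fell to 0.08 with total-count scaling. Bcl2l11 (ENSMUSG00000027381.16, chromosome 2, 128126038 to 128162547) had 439, 548 and 670 reads. It was 1.33-fold higher than control after glucose oxidase (1.18 to 1.52) and 1.52-fold with Et2HOBA (1.34 to 1.71). These 2 intervals overlap, and the ratio between the treated libraries was 1.14 (1.01 to 1.28).

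Bmf, whose protein is held at the cytoskeleton until it is released by stress, was the member with the largest gap between the treated libraries. Bmf (ENSMUSG00000040093.16, chromosome 2, 118528757 to 118549687) had 677, 761 and 446 reads. It was highest after glucose oxidase and lowest with Et2HOBA. The fold of control was 1.20 (95% interval 1.08 to 1.34) after glucose oxidase and 0.655 (0.580 to 0.739) with Et2HOBA. With Et2HOBA its level was 0.545 of that after glucose oxidase (0.484 to 0.613), a log2 ratio of -0.86. Bmf lay above 3.56% of all genes in this comparison, and 11.0% of all genes had a log2 ratio at least as large in size. It did not reach the limit of 1. Bmf is singled out here as the member with the largest gap, so its place is less unusual than for a gene named beforehand. In the authors' deposited table Bmf had a log2 difference of 0.21 for glucose oxidase against control, and in the authors' deposited table for Et2HOBA against control it had -0.55.

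**Figure D2:**
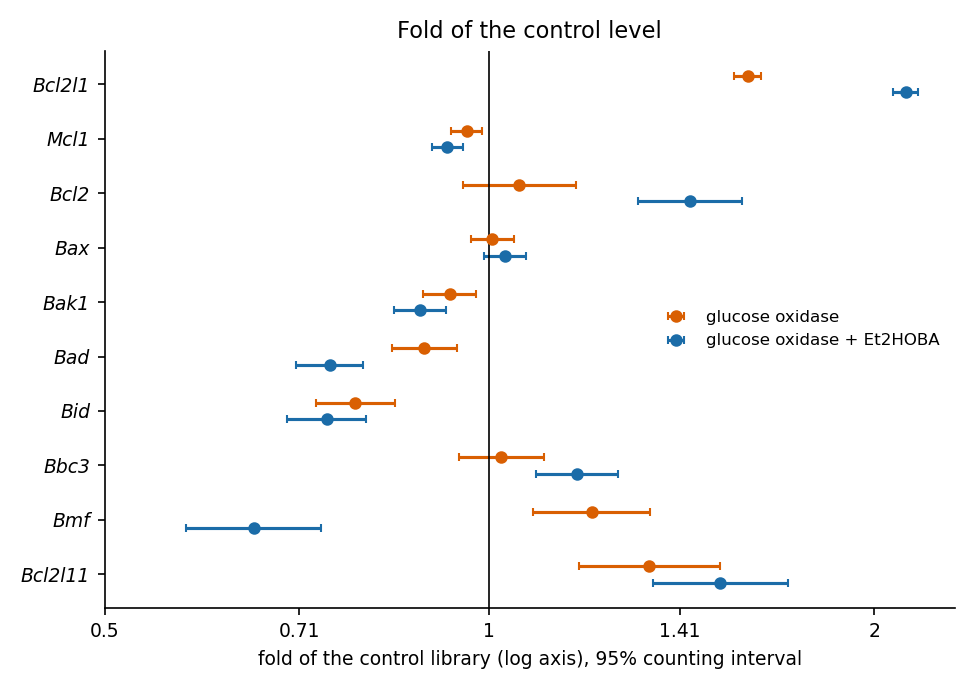
Fold of the control level (log axis) for each member after glucose oxidase and with Et2HOBA, with 95% counting intervals as bars; the vertical line marks equal levels. Bcl2l1 stands to the right at 1.59 and 2.12, and Bmf is the member with its intervals on opposite sides of the line.

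Start windows of Bcl2l11 and Bmf are shown beside those of Bcl2l1, since these genes had the next largest gaps from control with Et2HOBA. The windows are printed on the gene strand of GRCm38.p6. The outermost of 2 Bcl2l11 windows, chr2:128125788-128126087, is shown because it holds a FOXO site, GTAAACA in capitals, at position -227 from the start; the other Bcl2l11 window held no match. FOXO factors are known activators of Bcl2l11. The outermost Bmf window, chr2:118549637-118549936, held no match to the letters searched.
Bcl2l11: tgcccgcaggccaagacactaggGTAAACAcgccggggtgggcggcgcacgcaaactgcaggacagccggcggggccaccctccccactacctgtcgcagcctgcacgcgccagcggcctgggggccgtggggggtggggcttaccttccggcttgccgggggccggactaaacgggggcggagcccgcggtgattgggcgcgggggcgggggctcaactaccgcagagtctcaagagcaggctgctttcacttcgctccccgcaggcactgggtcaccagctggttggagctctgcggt
Bmf: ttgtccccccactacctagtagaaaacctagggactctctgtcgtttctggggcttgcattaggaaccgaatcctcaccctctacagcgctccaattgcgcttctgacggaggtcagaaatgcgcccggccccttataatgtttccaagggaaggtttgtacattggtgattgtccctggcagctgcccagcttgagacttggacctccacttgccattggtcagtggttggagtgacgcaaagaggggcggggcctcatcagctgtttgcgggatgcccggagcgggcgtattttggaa

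The motifs searched on both strands were TGATGNAAT for the composite of CCAAT/enhancer-binding proteins and ATF factors, TGACNNNGC for the antioxidant response element, TGANTCA for AP-1, GTAAACA for FOXO and TTCNNNGAA for STAT factors. Among all 32817 windows 0.966%, 12.4%, 7.81%, 3.65% and 8.29% held them, in that order. The 10 members had 18 windows, of which 13 begin transcription within a GENCODE transcript of the gene, and the remaining match was a FOXO site in a Bbc3 window, on the opposite strand. A match is a run of letters and not a binding site. Which start the cells used is not resolved by gene counts.

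Within a library the members can be set against each other, which does not depend on how libraries are scaled. Levels here are reads per kilobase of all annotated exon bases of the gene. In control the order was Bax, Mcl1, Bcl2l1, Bak1, Bad, Bbc3, Bid, Bmf, Bcl2 and Bcl2l11, from 3237 normalized counts per kb for Bax to 52.98 for Bcl2l11. Each gene lay above the next by more than counting error. In both treated libraries Bcl2l1 stood first, at 3814 and 5072. With Et2HOBA and this length, Bbc3 and Bad could not be placed apart (ratio 1.004, 95% interval 0.939 to 1.07), nor could Bmf and Bcl2l11 (1.02, 0.901 to 1.15).

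The ratio of Bcl2l1 to Mcl1 was 0.812 in control (95% interval 0.791 to 0.834), 1.35 after glucose oxidase (1.31 to 1.38) and 1.85 with Et2HOBA (1.81 to 1.90). The ratio of Bcl2l1 to Bax was 0.740 (0.716 to 0.765), 1.17 (1.14 to 1.21) and 1.52 (1.48 to 1.57). The intervals of the 3 libraries were separate for both ratios. Summed over roles, the pro-survival genes stood at 1.15, 1.45 and 1.71 times the effectors. The rise of this ratio lay mainly in Bcl2l1, at 2396, 3814 and 5072 normalized counts per kb, while Mcl1 was at 2950, 2832 and 2735. BH3-only genes made up 18.1%, 15.5% and 13.5% of the family's summed level. Bcl2l1 is part of that sum, so its rise alone lowers the BH3-only share.

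These ratios rest on gene length. Bcl2l1 has 4.586 kb of annotated exon bases but a longest transcript of 2568 bases. For Bad these are 2.558 kb and 1533 bases, and for Bcl2l11 8.029 kb and 5036 bases. The pairs that could not be placed apart with Et2HOBA rest on exon bases and were not recomputed with longest transcripts. With the longest transcript as length, chosen after the data were seen, the ratio of Bcl2l1 to Mcl1 was 1.45, 2.41 and 3.31, so that Bcl2l1 was above Mcl1 in control too. The ratio to Bax was then 0.923, 1.46 and 1.90. The relative change between libraries is the same under either length for a ratio of 2 single genes, but not for the ratio of the summed roles, which was then 1.20, 1.61 and 1.96.

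**Figure D3:**
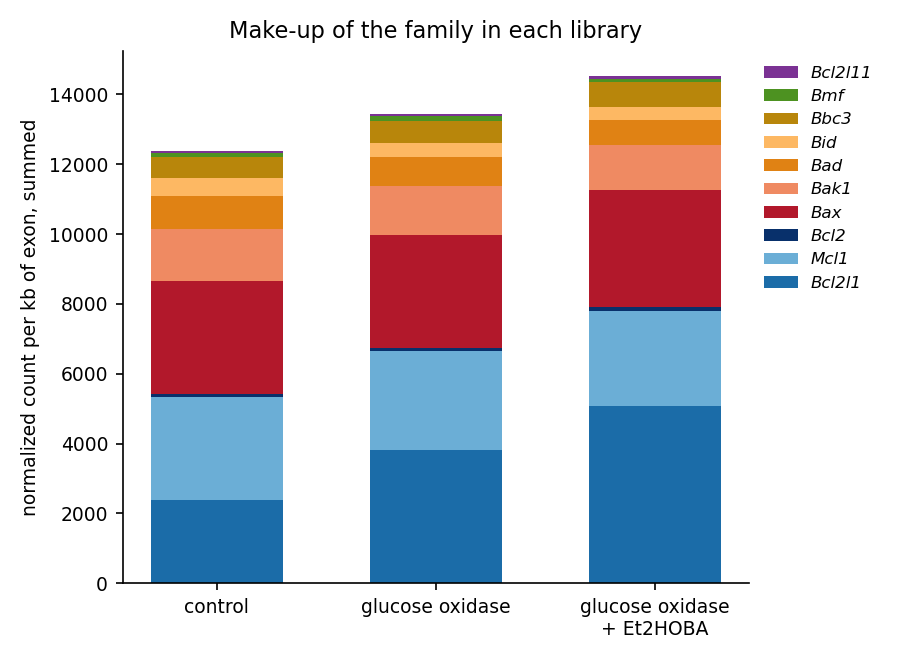
Normalized count per kilobase of annotated exon, stacked over the 10 members, in each library. Bcl2l1 grows from 44.2% of the pro-survival genes in control to 56.7% and 64.0%, while the effectors Bax and Bak1 keep nearly the same height.

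The place of each member among all genes is shown for the 3 comparisons. After glucose oxidase Bcl2l1 lay above 91.4% of genes and Bid above 26.5%, the highest and lowest of the family. With Et2HOBA the ends were Bcl2l1 and Bmf, the latter above 17.4%. Between the treated libraries they were Bcl2, above 84.6%, and Bmf.

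**Figure D4:**
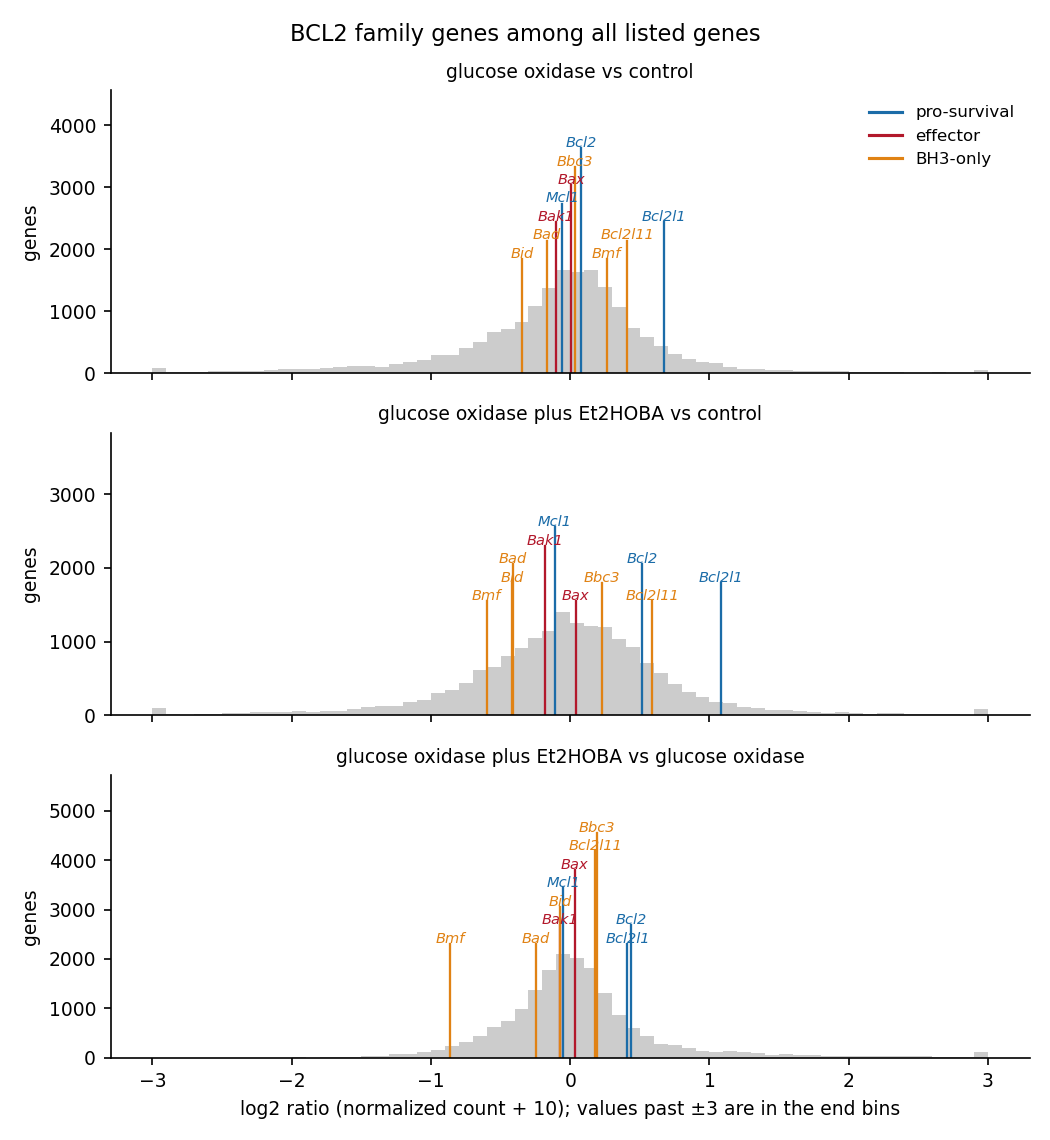
Histogram of the log2 ratio (normalized count plus 10) of all 18287 genes in each comparison, with a coloured line for each member by role. Most members sit in the middle of the distribution; Bcl2l1 at 1.08 in the second panel and Bmf at -0.86 in the third lie in its flanks.

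Of 15 further genes of the family 7 were listed. One of them, Bok, passed the limit against control, and it did so in both treated libraries. Of all genes 12.7% and 14.7% passed it. BOK is a relative of BAX and BAK. Bok had 103, 276 and 305 reads, or 2.87-fold (95% interval 2.28 to 3.63) and 2.94-fold (2.35 to 3.72) the control level. The treated libraries were alike for Bok, at a ratio of 1.03 (0.870 to 1.21). Bcl2l2, which encodes pro-survival BCL-W, had 1041, 1451 and 1712 reads and log2 ratios of 0.57 and 0.70 against control. Bcl2l15 had 6, 2 and 2 reads. Bnip3 and Bnip3l share 62.4% and 23.4% of their stretches with other genes, among them pseudogenes, and are uncertain.

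Genes that act after cytochrome c release stayed mostly under the limit, as most genes did. Of 16 such genes 1 was past it in each comparison, against 12.7%, 14.7% and 8.55% of all genes. It was Birc5, which encodes survivin and is also a gene of dividing cells. Birc5 had 1025, 261 and 120 reads, a log2 ratio of -1.84 after glucose oxidase and -2.999 with Et2HOBA. The list's medians were 0.10 and 0.00 against control. Apaf1, the scaffold of the apoptosome, had log2 ratios of 0.28 and 0.55.

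Among 10 genes of the death receptor arm, 1 was lower past the limit after glucose oxidase and 2 with Et2HOBA, and none was higher. Of all 18287 genes, 1572 and 1471 were lower past the limit, and 745 and 1217 were higher. Tnfsf10, which encodes the ligand TRAIL, had 265, 56 and 10 reads, or 0.226 (95% interval 0.166 to 0.302) and 0.0375 (0.0178 to 0.0701) of the control level. Fas, the receptor for FAS ligand, had 2045, 1369 and 755 reads and log2 ratios of -0.48 and -1.43. The median of the list was 0.04 after glucose oxidase and -0.03 with Et2HOBA. Tnfrsf10b, the mouse TRAIL receptor, was not past the limit, at 0.26 and 0.80.

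Of 16 regulators of the family 4 were past the limit against control in each treated library, all higher: Trib3, Ddit3, Atf4 and Mdm2. Of all 18287 genes, 745 were higher past the limit after glucose oxidase and 1217 with Et2HOBA. Ddit3, which encodes CHOP, a factor known to act on BH3-only genes, was at 5.46-fold and 9.13-fold the control level. Mdm2, a target and inhibitor of p53, had 5858, 11043 and 14297 reads, 2.02-fold (95% interval 1.95 to 2.08) and 2.43-fold (2.352 to 2.5). Bax and Bbc3 are known p53 targets as well, and their largest log2 ratio against control was 0.23. Trp53 itself had 0.30 and 0.13. Foxo3, a known activator of Bcl2l11, had -0.54 and -0.50. The light chain Dynll1, a known partner of BIM, had -0.31 and -0.73. The medians of the list were 0.07 and 0.05.

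None of the 11 partners at the mitochondrial membrane passed the limit in any comparison, against 12.7%, 14.7% and 8.55% of all genes. The lowest was Fis1, a fission factor, with 7585, 4546 and 4382 reads and log2 ratios of -0.64 and -0.80. The highest was Vdac3, an outer membrane channel, with 5094, 6858 and 8812 reads and 0.52 and 0.78. Vdac2, the channel that binds BAK, had -0.11 and -0.02.

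**Figure D5:**
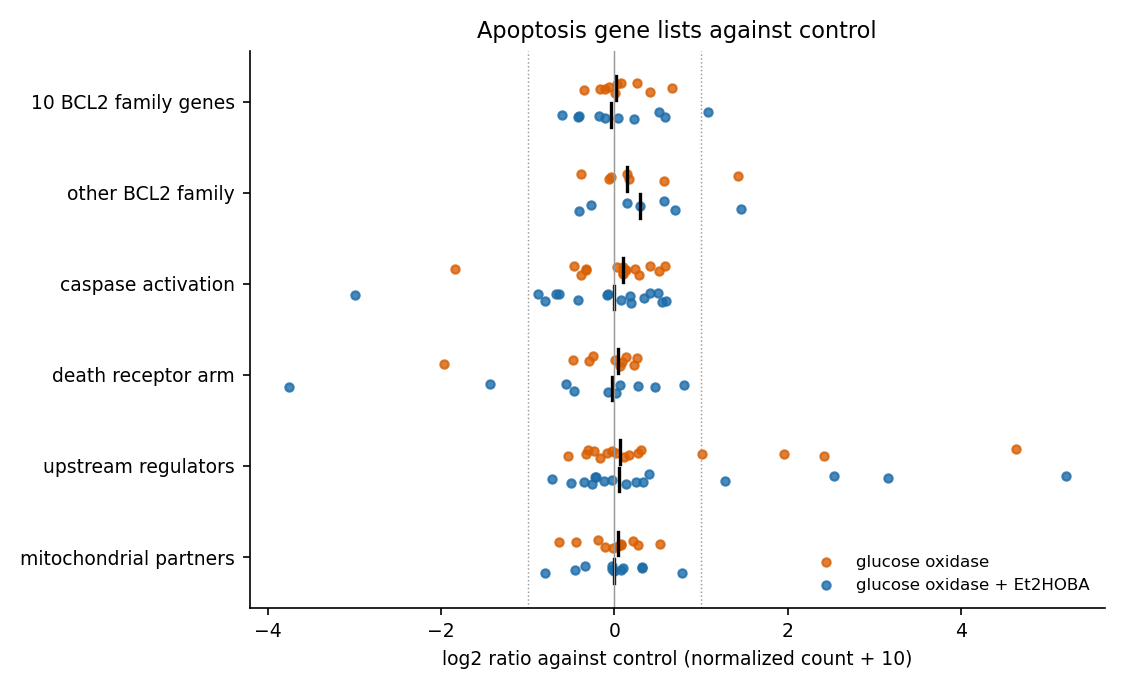
Log2 ratio against control (normalized count plus 10) for each gene of the 10 members and 5 other lists, 1 point per gene and treated library; black bars are medians and dotted lines the limit of 1. Medians lie near 0 except for the 7 other BCL2 family genes (0.15 and 0.30). Both of those medians are the values of Bnip3l, a gene called uncertain above. Points past the limit include Trib3, Ddit3, Atf4 and Bok to the right and Birc5, Tnfsf10 and Fas to the left.

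Markers of other cell types were not uniform over the libraries. Cd68, a macrophage marker that other cells can express, had 8215, 17067 and 27799 reads, and Pdgfra, a mesenchymal marker, had 107, 1325 and 2821. Other markers of those lists stayed low: Lyz2 had 76 to 186 reads, Cd79a 2 to 9 and Col1a1 23 to 30. The endothelial markers did not move together: Vwf had 46607, 21567 and 12545 reads and Tek 6786, 2877 and 1688, while Emcn had 5373, 6333 and 7936 and Cdh5 55360, 45034 and 63665. The part of these differences in the values of Bcl2l1 and Bmf was not tested.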

How the data were processed

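Per the submitters' processing notes, STAR and featureCounts were used with the build mm10; versions and settings are not given in the sources used here. The authors deposited raw read counts per gene for the control and the glucose oxidase plus Et2HOBA libraries, with log2 values and their difference, per the file headers. For glucose oxidase against control they deposited only a log2 difference per symbol. Gene positions are those of the deposited count table; GENCODE M21 holds 17878 of the 18287 IDs at the same version, and Bmf differed in version only.

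The deposited log2 differences for glucose oxidase were taken as differences of asinh of the root of a scaled count, a form no header states. Undoing that form for glucose oxidase, starting from control reads, left 100% of 18275 symbol-matched genes, all 10 members included, less than 0.01 from whole reads. With 1 read added to control the share was 3.31%. A further 12 genes were placed by whole reads. The step was tested on data simulated with the same form, which cannot show that the form is right.

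Size factors came from the median of ratios over the 3 libraries (1.03, 0.965 and 1.04). Log2 ratios used a pseudocount of 10 and a limit of 1. No count model was fitted, as each group has 1 library. Alternatives were a pseudocount of 1, total-count scaling, TMM factors from edgeR 4.0.16, the deposited log2 differences, a limit of 0.5, a filter on low counts, and protein-coding genes. The members and lists were chosen with earlier results of these data known. Named genes were all members and list genes past the limit against control, at most 6 per list; other list genes, the motifs and the printed windows were chosen after their values were seen. Start windows are RefSeq's (GRCm38.p6). Python 3.11.15 and scipy 1.17.1 were used.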

Additional observations from a re-analysis of the deposited data

How the results depend on the processing

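Of 110 values of single members under the alternatives, 106 kept the sign of the value reported; the others were Bax in all 3 comparisons and Bbc3 after glucose oxidase under total-count scaling. The all-gene median is then -0.06, -0.13 and -0.08. That scaling also took the count of members past the limit with Et2HOBA against control from 1 to 0. The largest shift of a member was 0.1515 with total-count scaling and 0.0974 with the deposited log2 differences. It was 0.0042 with TMM factors and 0.0135 with a pseudocount of 1, and shifts that small could hardly turn a sign. The deposited differences rest on the same reads. The number of values that kept their sign is therefore a weak check. At a limit of 0.5, 1 member passed after glucose oxidase (33.8% of all genes), 4 with Et2HOBA against control (40.1%) and 1 between the treated libraries (25.5%). With a pseudocount of 1 the shares of all genes past the limit of 1 were 23.2%, 24.6% and 18.1%, and over protein-coding genes the share between the treated libraries was 3.32%; the cause was not tested. With the longest transcript as length, the pro-survival genes stood at 1.20, 1.61 and 1.96 times the effectors. Deposited log2 differences were not used between the treated libraries, where no member is listed. No paired analysis was possible because each group has 1 library. The lowest count of a member was 439 reads, for Bcl2l11 in control. With Et2HOBA, Bmf and Bcl2l11 had 446 and 670 reads and could not be placed apart per kilobase of exon. The spread between replicates is unknown.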

Other observations

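The balance among BH3-only genes differed between the libraries. Per kilobase of exon, Bmf stood at 2.36 times Bcl2l11 in control (95% interval 2.09 to 2.66), 2.12 times after glucose oxidase (1.90 to 2.37) and 1.02 times with Et2HOBA (0.901 to 1.15). Bcl2l11 stood at 0.107 of Bid in control (0.0964 to 0.119), 0.182 after glucose oxidase (0.165 to 0.201) and 0.218 with Et2HOBA (0.198 to 0.239). Bbc3 made up 27.4%, 30.1% and 36.6% of the summed level of the 5 BH3-only genes, and Bad 42.6%, 40.7% and 36.4%. Bax stood at 2.19, 2.36 and 2.55 times Bak1. These levels rest on exon bases as length, and longest transcripts were not tried for them.

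By the distance between pairs of log2 ratios against control, the genes most like Bcl2l1 were Sra1, Tm4sf1 and Tmem60, at 0.0106, 0.0156 and 0.0163. Of 11340 genes searched, 62 lay within 0.1, and the pairs rest on 3 libraries.

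Dffb, which encodes the caspase-activated DNase, resembled Bmf in being highest after glucose oxidase and lowest with Et2HOBA, with 146, 185 and 107 reads (control, oxidase alone, oxidase plus Et2HOBA). It was singled out after its values were seen.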
